A study of Mus musculus with 12 samples.

Results

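The transcripts examined here encode enzymes of mitochondrial fatty acid oxidation in single cardiac precursor cells (CPs) of the early mouse embryo. Members were chosen by name from a list of 10 symbols, and the 9 with values were followed in all 12 cells: Cpt2, Acadl, Acadm, Acads, Hadha, Hadhb, Acaa2, Etfa and Etfb, out of 14063 symbols. Cpt1a was not analysed here. The cells came from embryos of the CD1 strain and make up 4 subpopulations of 3 cells: EB Nkx2-5+ and EB Tbx5+ CPs from the early allantoic bud (EB) stage, and EHF Nkx2-5+ and EHF Nkx2-5+/Tbx5+ CPs from the early head fold (EHF) stage. Nkx2-5 and Tbx5 are cardiac transcription factors, and each cell was classed by PCR for them on its own amplified cDNA. Cells were first taken as candidates by the same PCR as positive for Cfc1 and negative for the endoderm gene Sox17 and the neural gene Sox2. No treatment or altered allele is named for any of these cells.

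Fatty acids enter mitochondria bound to carnitine. CPT1 at the outer membrane makes the acylcarnitine, a carrier moves it inside, and CPT2 at the inner membrane releases the acyl-CoA again. Acyl-CoA dehydrogenases then open each round of beta-oxidation, a hydratase and a dehydrogenase act next, and a thiolase splits off acetyl-CoA. The electrons of the first step pass to the electron transfer flavoprotein (ETF) and on to the respiratory chain. The adult heart is known to draw much of its energy from this pathway, whereas the early embryonic heart is known to rely largely on glucose and lactate.

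Values are RPM, the reads of a gene scaled to 1000000 aligned reads of the cell, with no adjustment for gene length, so levels are compared between cells for the same gene and not between genes. Aligned reads were between 12475588 and 37905007 per cell, a read was worth 0.0264 to 0.0802 RPM, and a value of 0 allows for up to 3 reads, or 0.0791 to 0.240 RPM. These limits and the intervals given for shares cover counting error only, since PCR copies of a molecule are counted as separate reads. Genes at 1 RPM or more numbered 2682 to 5650 per cell, with the fewest in replicate 3 of the EHF Nkx2-5+/Tbx5+ CPs (2682) and replicate 2 of the EHF Nkx2-5+ CPs (3073). Nkx2-5 was at 1.48 RPM or more in the 9 cells classed as Nkx2-5+ and at 0 in EB Tbx5+ CPs. Tbx5 lay between 3.69 and 60.3 RPM in EHF Nkx2-5+/Tbx5+ CPs but only between 0.0276 and 0.335 RPM in EB Tbx5+ CPs, so their name rests on the PCR more than on the reads. Cfc1 was under 0.1 RPM in replicates 1 and 2 of the EB Nkx2-5+ CPs and replicate 1 of the EB Tbx5+ CPs. Of other cell types, 4 of 10 endoderm markers were measured and none reached 1 RPM in any cell. Of 4 neural ectoderm markers 2 were measured and 1 of them reached 1 RPM, with a highest sum of 11.2 RPM. Of 6 endothelial and blood markers 2 were measured and 1 reached 1 RPM, with a highest sum of 10.6 RPM.

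No embryo is named for any cell, so each subpopulation of 3 cells was taken as 1 sample and no test was made. What follows describes these cells. A log2 difference sets the mean of a subpopulation against that of the cells it is compared with, on the log2 scale, once 10 RPM has been added to each. A gene is said to pass the fold when this difference is 1 or more, or -1 or less, and the same count over the 5031 genes whose mean over the 12 cells was 10 RPM or more is given as background. Hadha, Cpt2, Etfa, Etfb, Acaa2 and Acadl reached that mean, and Hadhb, Acadm and Acads did not. The mean runs over all 12 cells, so a gene can reach it through the cells in which it is high. Cpt2 and Acaa2 averaged 7.62 and 7.16 RPM outside the EHF Nkx2-5+/Tbx5+ CPs, and Acadl 0.306 RPM outside the EB Nkx2-5+ CPs.

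The set did not behave as a unit. The summed RPM of the 9 genes was 227, 364 and 165 in EB Nkx2-5+ CPs and 135, 72.0 and 271 in EB Tbx5+ CPs. It was 344, 2.54 and 177 in EHF Nkx2-5+ CPs and 244, 446 and 2026 in EHF Nkx2-5+/Tbx5+ CPs. All subpopulations overlapped in this sum, and the outlying values were those of the cells with the fewest detected genes. A cell had between 1 and 7 of the 9 genes at 1 RPM or more. In 5 of the 6 EB cells Etfa, a subunit of ETF, was the member with the most reads, counted without regard to gene length, and Hadha was so in the sixth.

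**Figure D1:**
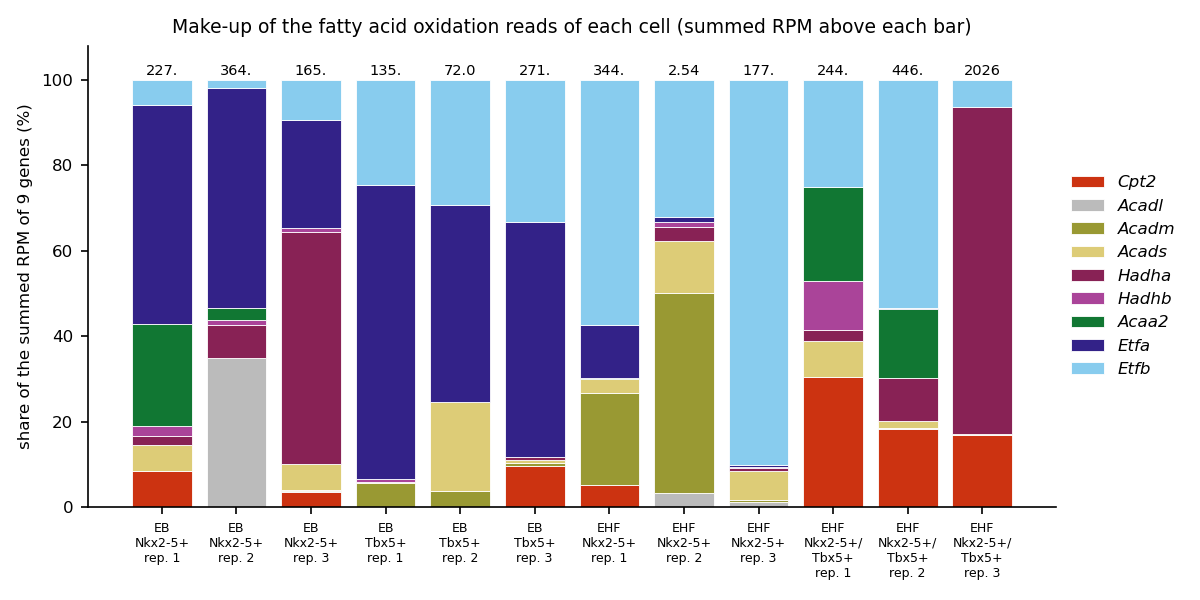
Share of the summed RPM of 9 fatty acid oxidation genes taken by each gene (stacked, in %) in each of the 12 cells, with the summed RPM above each bar. Etfa takes most of the bar in most EB cells and is hardly seen in the EHF cells other than replicate 1 of the Nkx2-5+ CPs, whereas Cpt2 takes a part of all 3 EHF Nkx2-5+/Tbx5+ bars and Hadha takes 76.4% of the last one, whose sum is 2026 RPM.

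ETF is a heterodimer, and its alpha subunit is encoded by Etfa and its beta subunit by Etfb. Etfa RPM was 116, 188 and 41.4 in EB Nkx2-5+ CPs and 92.9, 33.2 and 149 in EB Tbx5+ CPs. At the EHF stage it was 42.9, 0.0282 and 0.721 in the Nkx2-5+ CPs and 0.158, 0.601 and 0.0287 in the Nkx2-5+/Tbx5+ CPs. Thus Etfa was abundant in all 6 EB cells and present at 1 to 22 reads in 5 of the 6 EHF cells, and a single EHF cell lay within the EB range. The mean was 104 ± 60.5 RPM (SD over 6 cells) at EB and 7.40 ± 17.4 RPM at EHF, a log2 difference of -2.71.

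Etfb RPM was 13.4, 6.75 and 15.6 in EB Nkx2-5+ CPs and 33.4, 21.2 and 90.3 in EB Tbx5+ CPs. It was 197, 0.818 and 160 in EHF Nkx2-5+ CPs and 61.1, 238 and 130 in EHF Nkx2-5+/Tbx5+ CPs. The 5 EHF cells other than replicate 2 of the Nkx2-5+ CPs therefore had more Etfb than 5 of the 6 EB cells, and the stages overlapped. The mean was 30.1 ± 30.8 RPM at EB and 131 ± 87.8 RPM at EHF, a log2 difference of 1.82.

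The subunits of the same flavoprotein thus had means on opposite sides. Etfb took 10.3% (exact 95% binomial interval 9.32 to 11.3), 3.47% (2.95 to 4.05) and 27.4% (25.5 to 29.4) of the reads of both genes in EB Nkx2-5+ CPs. The shares were 26.4% (25.2 to 27.7), 38.9% (36.8 to 41.1) and 37.7% (36.6 to 38.8) in EB Tbx5+ CPs. All EB cells were below 39%. In EHF Nkx2-5+ CPs Etfb took 82.2% (81.3 to 83.0), 96.7% (82.8 to 99.9, on 30 reads in all) and 99.6% (99.1 to 99.8). In EHF Nkx2-5+/Tbx5+ CPs it took at least 99.7% in each cell. The stages did not overlap in this share, which was looked at after the values of both genes had been seen. Whether the stages overlap in it does not depend on gene length or on how reads were scaled between cells. With 10 RPM added to each gene, the ratio also separated the stages, narrowly for replicate 2 of the EHF Nkx2-5+ CPs. It was among 3 of the 36 ratios between members that did so, and Etfa was part of all 3. Of 5030 other genes at the 10 RPM mean, 13.9% had a ratio to Etfa that separated the stages and 0.994% had such a ratio to Etfb. A ratio to Etfa thus separated the stages more often than a ratio to Etfb.

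**Figure D2:**
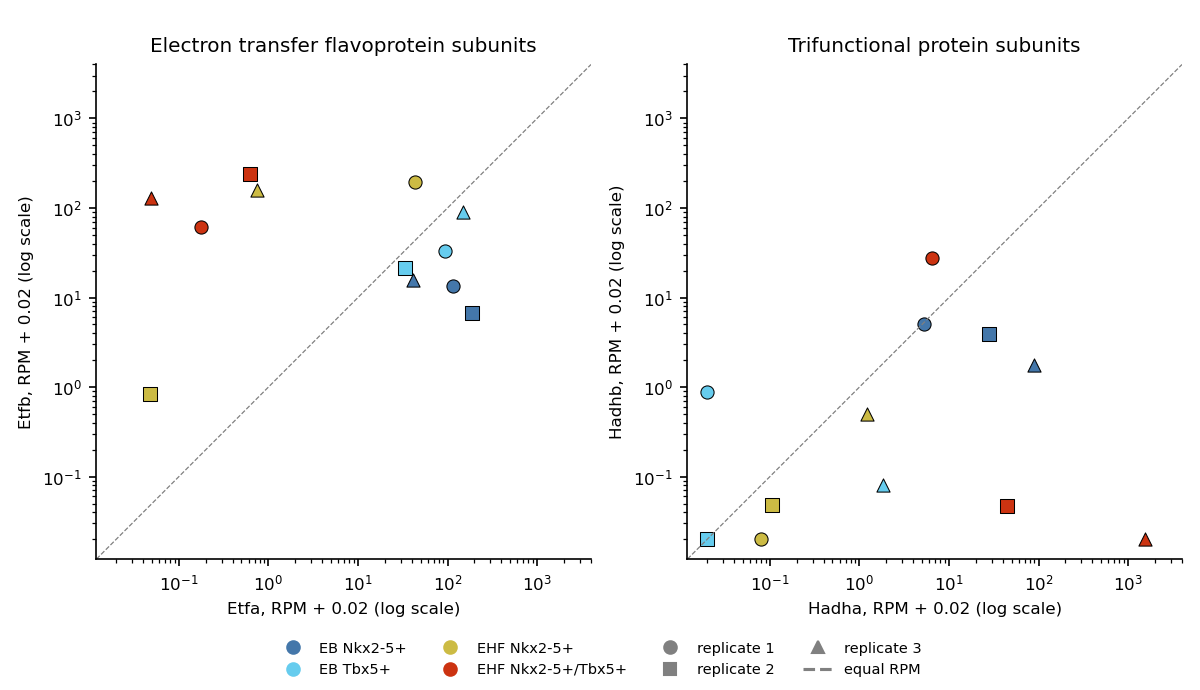
RPM of Etfb against Etfa (left) and of Hadhb against Hadha (right) in the 12 single cells, on log axes with 0.02 RPM added so that zeros can be drawn, coloured by subpopulation, with a dashed line of equal RPM. All EB cells lie below the line for ETF and all EHF cells above it, whereas the subunits of the trifunctional protein show no such order and 1 cell has 1547 RPM of Hadha and 0 of Hadhb.

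The sequences just upstream of the ETF genes are shown because their transcripts differed in direction between the stages. Etfa lies on chromosome 9, 55454436 to 55512243, on the minus strand, and Etfb on chromosome 7, 43444072 to 43457800, on the plus strand (RefSeq, GRCm38.p6, the mm10 assembly). The 250 bases before each RefSeq start site are written 5′ to 3′, at chr9:55512244-55512493 (minus strand) and chr7:43443822-43444071 (plus strand), with matches to the CCAAT box, CCAAT on either strand, in capitals.
Etfa: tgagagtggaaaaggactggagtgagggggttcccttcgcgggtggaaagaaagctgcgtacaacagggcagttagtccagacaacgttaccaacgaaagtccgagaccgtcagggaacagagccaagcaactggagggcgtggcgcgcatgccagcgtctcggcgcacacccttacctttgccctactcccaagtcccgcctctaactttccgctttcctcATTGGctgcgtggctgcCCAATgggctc
Etfb: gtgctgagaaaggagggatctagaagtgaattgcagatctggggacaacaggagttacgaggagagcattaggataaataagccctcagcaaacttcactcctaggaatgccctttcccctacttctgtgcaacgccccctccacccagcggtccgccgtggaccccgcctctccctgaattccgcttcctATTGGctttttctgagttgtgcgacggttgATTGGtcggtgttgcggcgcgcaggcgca
Each window held 2 matches, which began 28 and 11 bases before the start site of Etfa and 59 and 29 bases before that of Etfb. Of 32851 promoter windows of this length, 33.8% held at least 1, and among the 8 members searched only these 2 genes did. A match is a description of letters and not a site.

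Etfdh encodes the oxidoreductase that takes electrons from ETF to ubiquinone. It was not above 0.463 RPM in any cell, so the transcript of this partner of ETF had few or no reads at both stages. Its protein was not measured.

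Cpt2, the carnitine palmitoyltransferase of the inner membrane, was the member that set the EHF Nkx2-5+/Tbx5+ CPs apart. Its RPM was 74.4, 81.8 and 341 in these cells, on 2821, 2992 and 11888 reads. It was 18.9, 0 and 5.85 in EB Nkx2-5+ CPs, 0.0272, 0 and 25.9 in EB Tbx5+ CPs and 17.9, 0 and 0 in EHF Nkx2-5+ CPs. The lowest of the 3 cells was thus well above the highest of the other 9, at 25.9 RPM. The means were 166 ± 152 RPM (SD over 3 cells) in EHF Nkx2-5+/Tbx5+ CPs and 7.62 RPM in the other 9 cells, a log2 difference of 3.32 that was 2.32 without replicate 3. Every cell of these CPs was higher than all others for 0.994% of the 5031 genes, 50 genes, and Cpt2 was the only member among them. Cpt2 is counted among the 5031 genes only through these CPs, so the share is no support for its place.

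The 250 bases before the Cpt2 start site are shown because Cpt2 was the member whose levels did not overlap. The gene lies on chromosome 4, 107903982 to 107923589, on the minus strand, and the window at chr4:107923590-107923839 (minus strand, GRCm38.p6). Capitals mark the GC box, GGGCGG on either strand.
Cpt2: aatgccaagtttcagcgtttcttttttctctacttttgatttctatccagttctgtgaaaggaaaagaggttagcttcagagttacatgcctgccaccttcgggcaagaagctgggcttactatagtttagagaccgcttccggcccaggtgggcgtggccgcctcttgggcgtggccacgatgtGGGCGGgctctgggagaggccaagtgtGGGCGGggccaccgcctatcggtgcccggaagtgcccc
Its 2 matches began 65 and 38 bases before the start site. GGGCGG was found in 5 of the 8 members searched and in 32.7% of all windows. AGGTCA, the half-site that nuclear receptors such as PPARs bind, was found in 1 of 8, Acadm, at 249 bases, and in 14.0% of all windows. The direct repeat of this half-site with 1 base between and the longer TNAAGGTCA bound by estrogen-related receptors were found in none of the 8, and in 0.0335% and 1.14% of all windows. AGGTCA is contained in both of these longer motifs.

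Of the other steps of the carnitine shuttle, Cpt1b and Slc25a20 were measured. Cpt1b, the muscle form of the outer membrane enzyme, was at 18.8 RPM in replicate 3 of the EB Tbx5+ CPs, at 5.56 RPM in replicate 3 of the EHF Nkx2-5+/Tbx5+ CPs and under 0.03 RPM elsewhere. Slc25a20, the carnitine-acylcarnitine carrier, was not above 0.0304 RPM, a single read, in any cell.

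The trifunctional protein carries out the last 3 steps for long acyl chains, and Hadha encodes its alpha and Hadhb its beta subunit. Hadha RPM was 5.22, 28.2 and 89.0 in EB Nkx2-5+ CPs and 6.52, 44.6 and 1547 in EHF Nkx2-5+/Tbx5+ CPs. It was 0, 0 and 1.83 in EB Tbx5+ CPs and 0.0597, 0.0846 and 1.20 in EHF Nkx2-5+ CPs. The 6 cells of the former subpopulations were all higher than the 6 of the latter. This grouping was not among the 7 comparisons made, and no share of all genes was counted for it. The highest cell, replicate 3 of the EHF Nkx2-5+/Tbx5+ CPs, held 53937 reads of Hadha, 89.7% of the RPM summed over 12 cells. The means were 533 ± 879 RPM in these CPs and 14.0 RPM in the other 9 cells, a log2 difference of 4.50 that was 0.57 without this cell.

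Hadhb had few reads in most cells. Its RPM was 5.01, 3.88 and 1.76 in EB Nkx2-5+ CPs and 0.871, 0 and 0.0609 in EB Tbx5+ CPs. It was 0, 0.0282 and 0.481 in EHF Nkx2-5+ CPs and 27.9, 0.0273 and 0 in EHF Nkx2-5+/Tbx5+ CPs. Among the latter, the cell with the least Hadha had the most Hadhb, and the cell with the most Hadha had no read of Hadhb. Hadha took 18.9% (exact 95% binomial interval 16.8 to 21.2), 99.9% (99.7 to 100) and 100% (99.99 to 100) of the reads of both genes in these 3 cells. In EB Nkx2-5+ CPs the shares were 51.1% (45.1 to 57.0), 87.9% (85.3 to 90.2) and 98.1% (97.5 to 98.5). Across the 12 cells, which share the library method and differ in depth and detected genes, Pearson's r of the 2 genes was -0.14 and Spearman's rho 0.22, and r was -0.01 without the 2 cells farthest from the median of Hadha.

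The genes lie head to head on chromosome 5, Hadha at 30119423 to 30154980 on the minus strand and Hadhb at 30155253 to 30184593 on the plus strand, with 272 bases between their start sites. The stretch is shown because the levels of the genes that flank it did not go together. The 250 bases before Hadhb, at chr5:30155003-30155252 (plus strand, GRCm38.p6), lie wholly between the genes, and capitals mark GGGCGG on either strand.
Hadhb: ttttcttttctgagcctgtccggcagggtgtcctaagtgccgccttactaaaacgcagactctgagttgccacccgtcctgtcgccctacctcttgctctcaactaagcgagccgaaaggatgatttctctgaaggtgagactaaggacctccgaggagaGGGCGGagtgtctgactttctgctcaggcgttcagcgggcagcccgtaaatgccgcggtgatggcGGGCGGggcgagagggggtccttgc
The matches began 90 and 25 bases before the Hadhb start site. The former is also the single match in the window of Hadha, 188 bases before its start site.

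Hadha also had an opposite order at the 2 stages. At EB, all Tbx5+ cells were lower than all Nkx2-5+ cells, with a log2 difference of -2.26, or -1.33 without replicate 3 of the Nkx2-5+ CPs. At EHF, all Nkx2-5+/Tbx5+ cells were higher than all Nkx2-5+ cells, with a log2 difference of 5.70, or 1.77 without replicate 3. Acadm, the medium-chain acyl-CoA dehydrogenase, had the mirror image of this order at low levels. Its RPM was 0.0360, 0.265 and 0.529 in EB Nkx2-5+ CPs and 7.51, 2.68 and 2.19 in EB Tbx5+ CPs. It was 73.5, 1.18 and 0.721 in EHF Nkx2-5+ CPs and 0.0791, 0.0547 and 0 in EHF Nkx2-5+/Tbx5+ CPs. All cells of the EB Tbx5+ and EHF Nkx2-5+ CPs were thus above all cells of the other subpopulations, although 5 of these 6 were at 7.51 RPM or less. The gap was narrow, between 0.721 RPM on 9 reads in EHF Nkx2-5+ replicate 3 and 0.529 RPM on 19 reads in EB Nkx2-5+ replicate 3. For this grouping too, no share of all genes was counted. Spearman's rho of Hadha and Acadm over the 12 cells was -0.84, the lowest of the 36 pairs of members, with Pearson's r at -0.12. An order that was opposite and did not overlap at either stage was found for 0.263% of the 14063 symbols, 37 in all. The symbols include 802 at 0 in all 12 cells, which could not have such an order. This lowers the share, and also the other shares of the symbols given below. The difference between the stages was not tested.

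**Figure D3:**
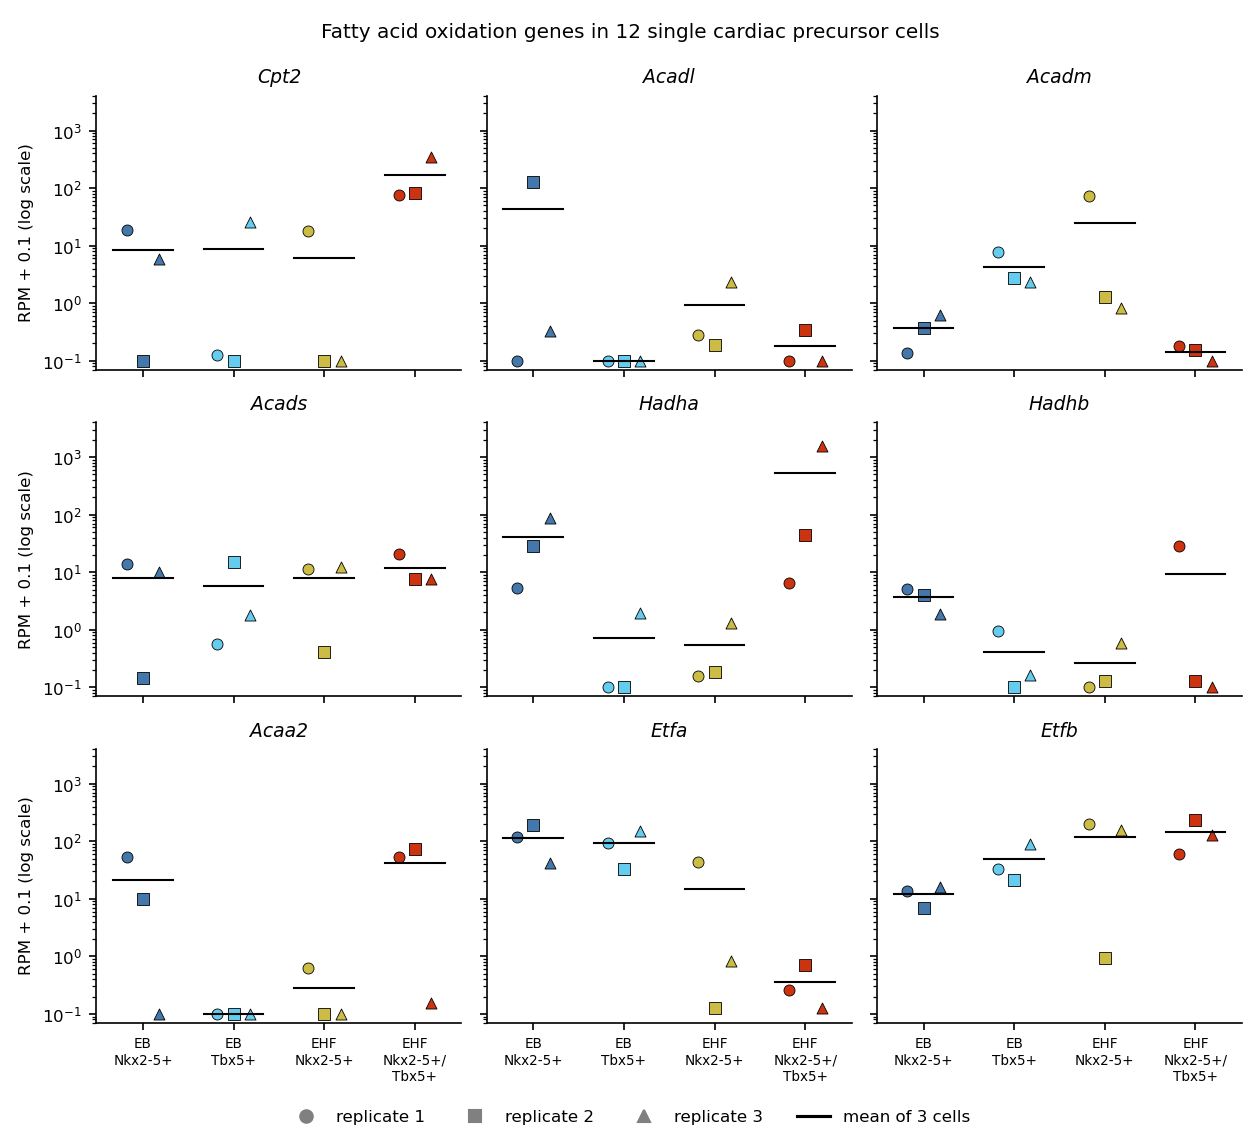
RPM of each of the 9 genes in each cell by subpopulation, on a log axis with 0.1 RPM added, with symbols for replicates and a line at the mean of 3 cells. Cpt2 is highest in all 3 EHF Nkx2-5+/Tbx5+ cells (74.4 to 341 RPM), Etfa is low in 5 of 6 EHF cells, Hadha and Acadm have opposite orders, and Acadl stands out in 1 cell only, at 127 RPM.

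The acyl-CoA dehydrogenases are matched to chain length. Acadl lies on chromosome 1, 66830839 to 66863309, Acadm on chromosome 3, 153922353 to 153944643, and Acads on chromosome 5, 115110299 to 115119346 (GRCm38.p6). Acadl, the long-chain acyl-CoA dehydrogenase, was essentially seen in 1 cell. Replicate 2 of the EB Nkx2-5+ CPs had 127 RPM, on 2879 reads, and no other cell had more than 2.24 RPM. This cell held 97.7% of the Acadl RPM, so each log2 difference of Acadl that passed the fold rests on it. Without it, the difference of the EB Nkx2-5+ CPs from the other cells was -0.03 in place of 2.35, and the other 5 that passed lay between -0.05 and 0.11.

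Acads, the short-chain acyl-CoA dehydrogenase, was the most even member. It ranged from 0.0441 to 20.4 RPM, with a median of 8.86 RPM, and was at 1 RPM or more in 9 cells of all subpopulations. Its log2 differences from the other 9 cells lay between -0.29 and 0.34, so no subpopulation stood apart. Acadvl, the very-long-chain enzyme, was at 26.0 RPM in replicate 2 of the EHF Nkx2-5+/Tbx5+ CPs and not above 0.475 RPM in any other cell.

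Acaa2, the mitochondrial thiolase of the last step, is encoded on chromosome 18. Its RPM was 54.0, 9.92 and 0 in EB Nkx2-5+ CPs and 53.9, 72.7 and 0.0574 in EHF Nkx2-5+/Tbx5+ CPs. All EB Tbx5+ CPs were at 0, and the EHF Nkx2-5+ CPs were at 0.537, 0 and 0. Reads of Acaa2 beyond 1 RPM were thus found in the 2 subpopulations that also had the most Hadha, in 2 of 3 cells each. The cells with the most Hadha in each, both replicate 3, were the ones with the least Acaa2, at 0 reads (EB) and 2 reads (EHF).

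**Figure D4:**
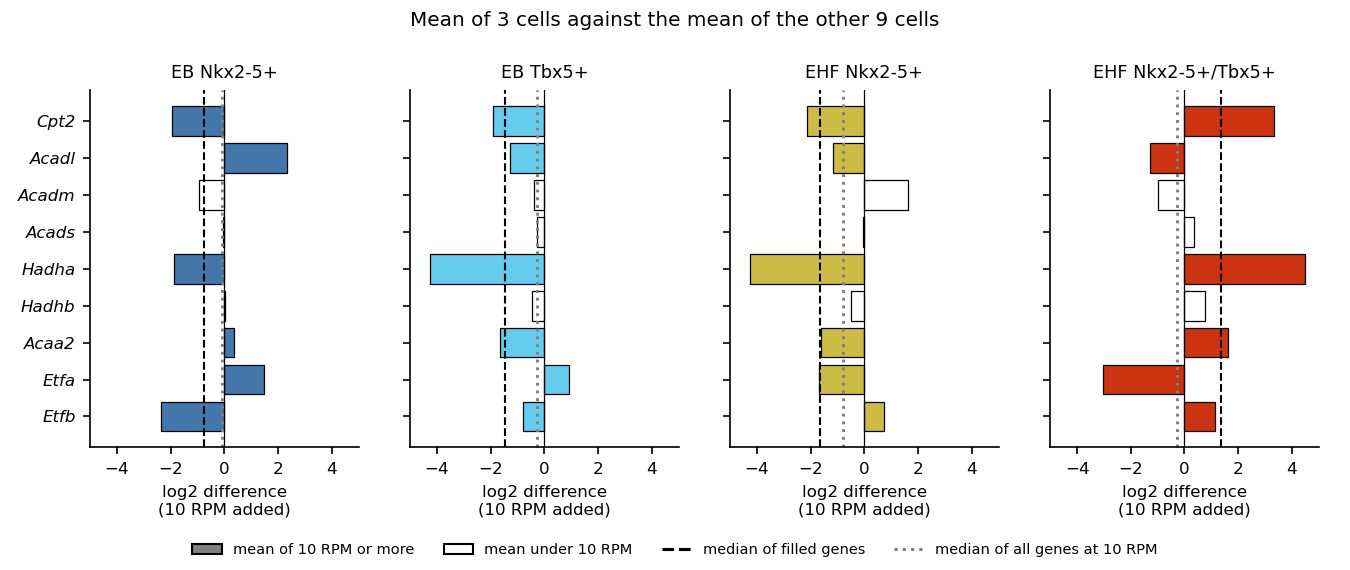
Log2 difference, with 10 RPM added, between the mean of 3 cells of each subpopulation and the mean of the other 9 cells for 9 genes. Filled bars are the 6 genes whose mean was 10 RPM or more, the dashed line is their median and the dotted line the median of 5031 genes. The median of the 6 genes is above 0 only in EHF Nkx2-5+/Tbx5+ CPs, at 1.37, where Etfa at -3.03 points the other way. Cpt2 and Acaa2 are among the 6 only through these CPs.

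Over the 6 members at the 10 RPM mean, the EHF Nkx2-5+/Tbx5+ CPs had a median log2 difference of 1.37 from the other 9 cells, where the median of all genes was -0.27. Cpt2 and Acaa2 reached that mean only through these CPs, so the median depends in part on the minimum. Over all 9 members, with no minimum, it was 0.77. Hadha (4.50), Cpt2 (3.32), Acaa2 (1.61) and Etfb (1.13) passed the fold upwards, as did 19.7% of all genes. Etfa (-3.03) and Acadl (-1.28) passed it downwards, as did 31.5%. Set against the mean of the 9 cells one at a time, the cells of this subpopulation had medians of -0.26, 1.51 and 0.12, so replicate 2 alone was near the value of the means. The median was 0.85 without replicate 2 and 0.88 without replicate 3, and Etfb was at 0.60 without replicate 2 and at 0.99 without replicate 2 of the EHF Nkx2-5+ CPs.

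In EB Tbx5+ CPs the median was -1.47, with -0.28 for all genes. No member passed the fold upwards, against 16.2% of all genes, and Hadha (-4.25), Cpt2 (-1.91), Acaa2 (-1.64) and Acadl (-1.29) passed it downwards, against 33.0%. In EHF Nkx2-5+ CPs the median was -1.65, and all genes were at -0.80, the lowest of the subpopulations. None of the 6 members passed upwards, against 13.1% of all genes, and 5 passed downwards, against 44.9%, among them Hadha at -4.27 and Cpt2 at -2.15. Acadm, below the 10 RPM mean, was at 1.61 there, and at -0.07 without replicate 1. The comparisons share cells, since each cell is among the other 9 in 3 of them. Without replicate 3 of the EHF Nkx2-5+/Tbx5+ CPs, Hadha was at -1.59 in the EB Tbx5+ and at -1.61 in EHF Nkx2-5+ CPs, and Cpt2 was at -0.90, within the fold, and at -1.17. Etfa, at -1.69 in the EHF Nkx2-5+ CPs, was at -2.93 without their replicate 1.

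In EB Nkx2-5+ CPs the median was -0.76, with -0.07 for all genes. Acadl (2.35) and Etfa (1.46) passed the fold upwards, against 20.5% of all genes, and Etfb (-2.37), Cpt2 (-1.94) and Hadha (-1.89) downwards, against 27.4%. Hadha was at 1.60 without replicate 3 of the EHF Nkx2-5+/Tbx5+ CPs and the median of the list was then 0.80, so neither direction holds without that cell. Cpt2 was at -0.94 without it and no longer passed the fold, and Etfa was at 0.97 without replicate 2 of the EB Nkx2-5+ CPs. Acadl was at -0.03 without that replicate.

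Between the stages, with 6 cells each, the median was 1.21 for the EHF cells against the EB cells, and -0.19 for all genes. Hadha (3.17), Cpt2 (2.38) and Etfb (1.82) passed the fold upwards, against 20.0% of all genes, and Etfa (-2.71) and Acadl (-1.58) downwards, against 26.7%. Without replicate 3 of the EHF Nkx2-5+/Tbx5+ CPs, Hadha was at -0.58, Cpt2 at 1.28 and the median at 0.097, and without replicate 2 the median was 0.80. No member separated the stages by its own RPM.

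Within the EHF stage, the Nkx2-5+/Tbx5+ CPs had a median of 1.30 against the Nkx2-5+ CPs, with 0.25 for all genes. Hadha (5.70), Cpt2 (3.46) and Acaa2 (2.36) passed the fold upwards, against 33.9% of all genes, and Etfa (-1.26) downwards, against 20.2%. Etfa was at -0.02 without replicate 1 of the Nkx2-5+ CPs, the only EHF cell with more than 1 RPM. Hadha and Cpt2 were higher in every Nkx2-5+/Tbx5+ cell, against 3.32% of the 14063 symbols, and Acadm was lower in every one, against 2.81%. These shares count the 802 symbols at 0 in all cells, which could not qualify. Acadm was at -1.81, and at -0.12 without replicate 1 of the Nkx2-5+ CPs.

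Within the EB stage, the Tbx5+ CPs had a median of -0.97 against the Nkx2-5+ CPs, with -0.10 for all genes. Etfb (1.41) passed the fold upwards, against 20.1% of all genes, and Acadl (-2.39), Hadha (-2.26) and Acaa2 (-1.65) downwards, against 26.8%. Etfb and Acadm were higher in every Tbx5+ cell, against 2.25% of the symbols, and Hadha and Hadhb lower in every one, against 3.56%. Of the 7 comparisons, this was the only one in which the subunits of the trifunctional protein had the same order without overlap. Acaa2 was at -0.58 without replicate 1 of the Nkx2-5+ CPs, Acadl at -0.02 without replicate 2 and Hadha at -1.33 without replicate 3. Etfb was at 0.77 without replicate 3 of the Tbx5+ CPs. The median was -0.44 and -0.14 without replicates 1 and 2 of the Nkx2-5+ CPs.

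Unevenness between cells was measured for the members beside genes at large. The median coefficient of variation over the 12 cells was 1.88 for the 6 members and 1.58 for 5031 genes, and the cell with the most RPM held a median of 49.2% and 40.6% of it. A single cell held over 85% of the RPM for 33.3% of the 6 members, Hadha and Acadl, and for 8.94% of all genes. Between pairs of the 9 members, Spearman's rho ranged from -0.84 to 0.57 with a median of 0.06, and 21 of 36 pairs were above 0. The highest, between Hadha and Cpt2, came with a Pearson's r of 0.96 that was 0.55 without 2 cells.

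Replicate 3 of the EHF Nkx2-5+/Tbx5+ CPs differed from the others in more than Hadha. Genes of the 7 cardiomyocyte markers summed to 8483 RPM in it, to 1340 and 73.8 RPM in replicates 1 and 2, and to 13.0 to 576 RPM in the other 9 cells. Its 21 glycolysis genes summed to 1495 RPM, where the other 11 cells had 3780 to 11654 RPM. It also had the fewest genes at 1 RPM or more, 2682. The part of any of these in the Hadha value was not tested. The Cpt2 RPM of this cell, 341, was also above those of replicates 1 and 2, 74.4 and 81.8, and the part of the same values in it was not tested.

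**Figure D5:**
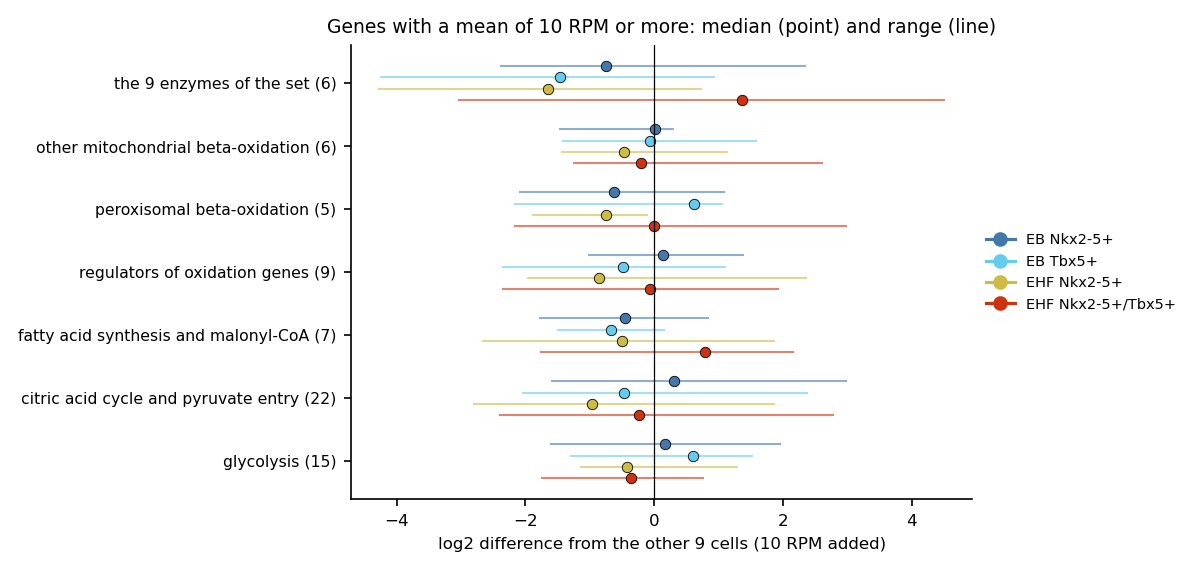
Median (point) and range (line) of the log2 differences of each subpopulation from the other 9 cells, with 10 RPM added, for those genes of each list that averaged 10 RPM or more, whose number stands in parentheses. The 6 oxidation enzymes have the widest range in EHF Nkx2-5+/Tbx5+ CPs, from -3.03 to 4.50, and the other mitochondrial beta-oxidation genes, with a median of -0.20, do not share their median of 1.37.

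Other genes of the pathway were read from fixed lists, and the genes named from them are mostly those with the largest differences. Of 21 further genes of mitochondrial beta-oxidation and the carnitine shuttle, 6 reached the 10 RPM mean. Their median in EHF Nkx2-5+/Tbx5+ CPs was -0.20, with 1 gene past the fold upwards and 1 downwards, against 19.7% and 31.5% of all genes. Acad11, an acyl-CoA dehydrogenase family member, was at 2.60 through 152 RPM in replicate 2 alone, and Crat, carnitine acetyltransferase, at -1.24. Acad11 averaged 0.0373 RPM in the other 9 cells, so it reached the 10 RPM mean only through the EHF Nkx2-5+/Tbx5+ CPs. The median was 0.01 in the EB Nkx2-5+, -0.07 in the EB Tbx5+ and -0.47 in EHF Nkx2-5+ CPs.

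Hadh and Echs1, the enzymes that act on short and medium chains after the dehydrogenase, were found in cells of every subpopulation. Hadh RPM was 96.5 to 402 in the EB Nkx2-5+ and 82.8 to 697 in EB Tbx5+ CPs. It was 212, 0.0846 and 157 in EHF Nkx2-5+ CPs and 464, 270 and 4.73 in EHF Nkx2-5+/Tbx5+ CPs. The low cells were the 2 with the fewest detected genes. Echs1 RPM was 38.6 to 73.5 in EB Nkx2-5+ CPs, 2.18 to 72.4 in EB Tbx5+ CPs and 74.0, 109 and 0.0287 in EHF Nkx2-5+/Tbx5+ CPs, and in EHF Nkx2-5+ CPs it was 163, 0.169 and 2.40. Neither passed the fold in EHF Nkx2-5+/Tbx5+ CPs against the other 9 cells.

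Of 11 genes of fatty acid uptake and activation, only Fabp5 reached the 10 RPM mean. It encodes a fatty acid-binding protein of the cytosol, and its RPM was 105, 91.4 and 36.2 in EHF Nkx2-5+/Tbx5+ CPs and not above 23.0 in any other cell. Like Cpt2, it was thus higher in every cell of this subpopulation, against 0.994% of 5031 genes, with a log2 difference of 2.27. Its mean in the other 9 cells was 8.14 RPM, so it reached the 10 RPM mean only through these CPs, as Cpt2 did. Of 12 peroxisomal genes 5 reached the mean. Hsd17b4, the peroxisomal bifunctional enzyme, was at 2.98 in the same CPs, through 254 and 42.8 RPM in replicates 3 and 2 and none in replicate 1. It averaged 3.83 RPM in the other 9 cells, so it too reached the 10 RPM mean only through these CPs. Scp2, a peroxisomal thiolase and sterol carrier, was at -2.16.

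The transcription factors and coactivators that are known to drive oxidation genes were uneven between cells. Ppargc1a, the coactivator PGC-1 alpha, was not above 0.765 RPM in any cell, and Ppara was not analysed here. Esrra, estrogen-related receptor alpha, was at 41.9, 27.4 and 79.4 RPM in replicate 1 of each subpopulation other than the EHF Nkx2-5+/Tbx5+ CPs and not above 0.162 RPM in the other 9 cells, and all 3 EHF Nkx2-5+/Tbx5+ CPs were at 0. Ppard, another PPAR, was at 278 RPM in replicate 2 of the EHF Nkx2-5+ CPs, at 47.0 RPM (replicate 1) and 44.3 RPM (replicate 2) among EB Nkx2-5+ CPs, and not above 0.0547 RPM in EHF Nkx2-5+/Tbx5+ CPs, where its log2 difference was -2.35. Rxrb, a partner receptor of PPARs, was at 1.91 there, on 116, 79.5 and 0.0574 RPM. Of the 9 regulators at the mean, 2 passed the fold upwards and 2 downwards in these CPs, against 19.7% and 31.5% of all genes. Those upwards were Rxrb and Med1, which averaged 9.98 and 7.40 RPM in the other 9 cells. Both thus reached the 10 RPM mean only through these CPs.

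Neighbouring routes were read in the same way. In EHF Nkx2-5+/Tbx5+ CPs the 22 genes of the citric acid cycle and pyruvate entry had a median of -0.24. Of these, 2 passed the fold upwards and 7 downwards, where 19.7% and 31.5% of all genes passed. Among them were Suclg2 (2.78), a subunit of succinyl-CoA ligase, and Sdhb (-2.40), a subunit of succinate dehydrogenase. Suclg2 averaged less than 1 RPM in the other 9 cells, so it reached the 10 RPM mean only through these CPs. The 15 glycolysis genes had a median of -0.37, with none upwards and 6 downwards against the same shares, led by Pfkm (-1.75), muscle phosphofructokinase, and Slc2a1 (-1.65), the glucose transporter GLUT1. The 7 genes of fatty acid synthesis had a median of 0.79, where all genes were at -0.27, with 2 past the fold upwards and 1 downwards against the same shares. Against the EHF Nkx2-5+ CPs their median was 1.34, beside 1.30 for the members and 0.25 for all genes. Mcat (2.15), malonyl-CoA transferase of mitochondria, and Srebf1 (1.74), a regulator of lipid synthesis, passed the fold upwards from the other 9 cells. Elovl1 (-1.76), an elongase, passed it downwards. Srebf1 averaged 7.65 RPM in the other 9 cells, so it reached the 10 RPM mean only through these CPs. Fasn, cytosolic fatty acid synthase, was at 0.80.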

How the data were processed

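The 12 single-cell cDNA preparations were made by picking cells, amplifying cDNA by 20 cycles of PCR and preparing Nextera libraries for an Illumina GA IIx. The authors annotated and normalised the reads in Partek Genomic Suite on mm10, and CASAVA 1.7.0 is named; for the aligner, none is named in the sources used here. The deposited signal is RPM over the aligned reads of the cell. Multiplied by these reads, 96.3% of the values of 0.5 to 20 reads came out whole within 0.02. The table stands 64 times in the file and its first copy was used; 22 names turned into dates were left out. Replicate numbers are those of the labels and name cells only.

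The means, log2 differences with 10 RPM added, list medians over genes averaging 10 RPM or more, shares and correlations were computed in Python 3.11.15 with numpy 2.4.6, pandas 2.3.3 and scipy 1.17.1, and the figures with matplotlib 3.10.9. The log2 difference was checked on simulated data with known folds and counting error only, so the check does not cover the spread between cells. The members and lists were chosen with earlier results of these data known. Named genes are all members, 9 fixed pathway genes and, per list and comparison, up to 4 genes with the largest differences, from which a part is named; the Etfb share and the ratios to Etfa were added after the values were seen. Promoter sequences are from RefSeq (GRCm38.p6); 8 members were matched. Alternatives were 1 or 100 RPM added, means of log2 values, medians over cells, rescaled RPM, no minimum or 50 RPM, dropping both cells with the lowest gene numbers (2682 and 3073), and dropping each cell in turn.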

Additional observations from a re-analysis of the deposited data

Results flagged for a closer look

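For 2 members and 1 gene of the glycolysis list, every Tbx5-classed cell lay on one side of every Nkx2-5+ cell at EB and on the opposite side at EHF. Hadha had log2 differences of -2.26 at EB and 5.70 at EHF, 7.96 apart. Without EHF Nkx2-5+/Tbx5+ replicate 3 the latter was 1.77, and without EB Nkx2-5+ replicate 3 the former was -1.33. Acadm had 0.46 and -1.81, -2.27 apart, on values of 7.51 RPM or less in 11 of the 12 cells. Its EHF value was -0.12 without EHF Nkx2-5+ replicate 1. Slc2a1, the glucose transporter, had 1.86 and -2.23, -4.08 apart, with 135 to 551 RPM in the EB Nkx2-5+ CPs, 1126 to 2010 RPM in the EB Tbx5+ CPs, 790 to 3647 RPM in the EHF Nkx2-5+ CPs and 0.631 to 585 RPM in the EHF Nkx2-5+/Tbx5+ CPs. None of these differences between the stages was tested, and 0.263% of all symbols had this order, counting the 802 symbols at 0 in every cell.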

How the results depend on the processing

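Depth and cell number limit these values: 3 cells stand for each subpopulation and no embryo is named, so spread between embryos cannot be seen. No paired analysis was possible because replicate numbers only name cells and no test was made. Of 35 gene values past the fold, 646 recalculations kept the direction in 634 and stayed past the fold in 567. These counts include the settings with no minimum and with 50 RPM. Those settings only choose which members enter the median, so they could not change the value of a gene. Leaving out each cell in turn, the median of the members ranged from -1.07 to 0.80 in the EB Nkx2-5+ CPs, from -1.58 to -1.15 in the EB Tbx5+ CPs, from -2.23 to -1.43 in the EHF Nkx2-5+ CPs and from 0.85 to 1.61 in the EHF Nkx2-5+/Tbx5+ CPs. It ranged from 0.097 to 1.54 for EHF against EB, from 0.87 to 1.57 within EHF and from -1.26 to -0.14 within EB.

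For the other settings, the cause of the change was not tested. A setting is listed where it moved the median by at least its SD over cells. By that rule none is listed for the EHF Nkx2-5+/Tbx5+ CPs. The medians of their cells were far apart, at -0.26, 1.51 and 0.12, against -0.66, -1.29 and -1.10 in the EB Nkx2-5+ CPs. A setting therefore had to move their median further to be listed, and the absence of a listed setting does not show a stable median. Their median of 1.37 was 0.77 with no minimum, lower with 100 RPM added and higher with 1 RPM added. In the EB Nkx2-5+ CPs the median was -0.24 with 100 RPM added, 0.66 as a mean of log2 values, 0.51 as a median over cells, -0.040 with no minimum, -1.89 at 50 RPM and 0.66 without the 2 cells with the fewest genes. In the EB Tbx5+ CPs it was -3.30 with 1 and -0.32 with 100 RPM added, -0.76 as a mean of log2 values, -0.39 as a median over cells and -0.80 with no minimum or with 50 RPM. In the EHF Nkx2-5+ CPs it was -3.10, -0.42 and -0.36 with 1 RPM, 100 RPM and as a median over cells. For EHF against EB it was 0.039 as a median over cells. Within EHF it was 2.42 and 0.33 with 1 and 100 RPM, 0.28 with no minimum and 0.24 at 50 RPM. Within EB it was -2.40 and -0.22 with 1 and 100 RPM, -0.48 as a median over cells and -0.30 with no minimum or with 50 RPM.

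The gene values that changed sign were few. Hadha in the EB Nkx2-5+ CPs was 0.74 as a mean of log2 values, 1.77 as a median over cells and 1.52 without the 2 cells with the fewest genes, and from -2.82 to 1.60 leaving out each cell; for EHF against EB it was -0.41 without these 2 cells and from -0.58 to 4.02 leaving out each. Acadl ranged from -0.027 to 2.84 in the EB Nkx2-5+ CPs, from -1.26 to 0.11 in the EHF Nkx2-5+ CPs and from -1.76 to 0.058 for EHF against EB, the values near 0 without EB Nkx2-5+ replicate 2, and was 0.026 and 0.019 in the last 2 as a median over cells. Acadm in the EHF Nkx2-5+ CPs ranged from -0.068, without replicate 1, to 2.04.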
